A study of Mus musculus with 28 samples.

Results

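The 8 genes described here are 5 members of the SLC2 family of sugar transporters (Slc2a1, Slc2a3, Slc2a6, Slc2a8 and Slc2a9) and 3 hexokinases (Hk1, Hk2 and Hk3). They were chosen by name, as the genes that encode the entry and the first phosphorylation of glucose, out of 54532 genes in the count table. SLC2 proteins, also called GLUT proteins, carry sugars across membranes down their concentration gradient, and each has its own membrane and preferred substrate. Hexokinases then add a phosphate to glucose, which traps it in the cell as glucose 6-phosphate for glycolysis, the pentose phosphate pathway or glycogen. Macrophages activated by bacterial products are known for a high use of glucose.

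Bulk RNA sequencing covered 28 cultures of murine bone marrow-derived macrophages (BMDMs), which the methods describe as grown with M-CSF from the marrow of C57/B6JB mice 8 to 12 weeks old. All cultures received fresh medium containing CaCl2 and were then left with PBS (control, n = 5), plasma-derived von Willebrand factor at 10 µg/ml (VWF, n = 5) or bacterial lipopolysaccharide at 100 ng/ml (LPS, n = 4) for either 3.5 h or 16 h. The labels call the cultures of a group biological replicates but do not say whether these came from separate animals, so the p-values measure only the spread between these cultures.

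Total counts per culture lay between 41131209 and 77699206. All 6 macrophage markers examined were detected, with a summed level of at least 2754 RPKM in every culture, while the 7 erythroid, 3 T cell and 3 B cell markers each stayed under 1 RPKM throughout. Of the other lists, 5 of 8 markers of neutrophils and their precursors and 3 of 4 dendritic cell markers were under 1 RPKM in every culture, and Col1a1 led the 4 fibroblast markers, which summed to between 1.60 and 45.8 RPKM. Control replicate 5 and LPS replicate 4 at 16 h stood apart from their groups (correlation with the mean of their group 0.901 and 0.949, against 0.973 to 0.997 in the other cultures). In both, genes with long transcripts were low and genes with short transcripts were high (long minus short, -0.77 and -0.80 on the log2 scale). Values without these cultures, or their part in the result, are given beside some of the results of 16 h. Where no such value is given, they may still have had a part. Other cultures deviated by transcript length too, most of all control replicate 4 (0.70) and VWF replicate 5 (0.65) at 3.5 h, in the opposite direction. They were not set apart.

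Levels are given as RPKM, read counts divided by exon length and by library size with TMM scaling, so that genes of different length can be set side by side. Differences are log2 fold changes of edgeR's quasi-likelihood test, fitted on all genes that reached 10 TPM (a share of all transcripts, corrected for length) in at least 1 culture of the comparison, with Benjamini-Hochberg adjustment over all of them. A gene passed the test at an adjusted p under 0.05 and was called when it also changed at least 2-fold. Slc2a3 never reached 10 TPM, so 7 of the 8 genes were tested this way, and Slc2a3 was tested without the filter. Scaling by library size alone would shift the centre of all tested genes, taken as the median log2 fold change, to -0.22 for VWF at 3.5 h, -0.55 for LPS at 3.5 h and -0.59 for LPS at 16 h, whereas TMM scaling leaves these medians between -0.03 and -0.01. All changes below are thus relative to the bulk of tested genes. Bulk RNA does not tell fewer cells of a type from less RNA per cell.

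Against control, the changes were unequal over the 8 genes, 2 agents and 2 times. With VWF at 3.5 h, 4 of the 7 tested genes passed the test and 2 were called (Slc2a6 and Hk2), where 43.6% and 14.7% of all 8200 tested genes did. With VWF at 16 h, 3 passed and 1 was called (Hk2), against 27.7% and 8.71% of all genes. With LPS at 3.5 h, 4 passed and 3 were called (Slc2a6, Hk2 and Hk3), against 65.7% and 24.5%. With LPS at 16 h, 6 passed and the same 6 were called, against 53.7% and 27.6%: Slc2a1, Slc2a6, Hk1, Hk2 and Hk3 were higher and Slc2a8 lower. With 7 genes, the counts stood close to the background in the first 3 comparisons and above it with LPS at 16 h. The median log2 fold change of the 7 genes was 0.35 and 0.18 with VWF and 0.42 and 1.42 with LPS, at 3.5 h and 16 h in that order, where that of all tested genes lay between -0.03 and -0.01. With scaling by library size alone the called genes were 1 with VWF at 3.5 h (Slc2a6) and 3 with LPS at 16 h (Slc2a6, Slc2a8 and Hk3). The VWF and the LPS comparisons at each time use the same 5 control cultures.

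**Figure D1:**
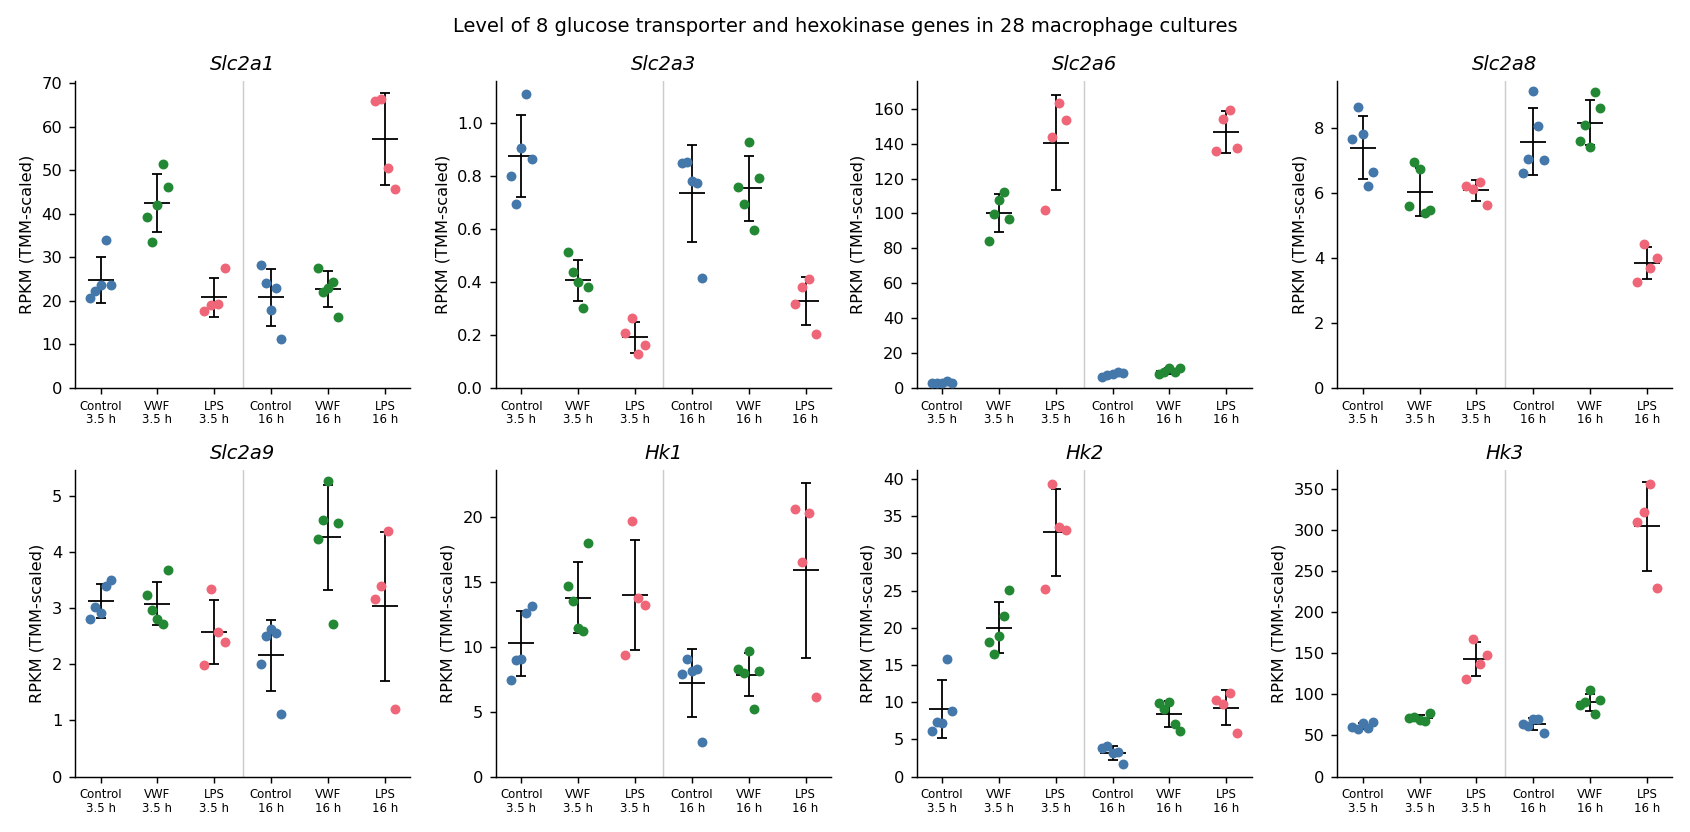
Level of each gene in RPKM (vertical axis, linear, a separate scale for each gene) in the 28 cultures by group. Points are cultures, horizontal lines are group means and bars are SD (n = 5, or 4 for LPS). Slc2a6 sits between 84.3 and 163 RPKM with VWF or LPS at 3.5 h and under 4 in the controls of that time, and Hk3 with LPS at 16 h (229 to 356) lies above every other culture.

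**Figure D2:**
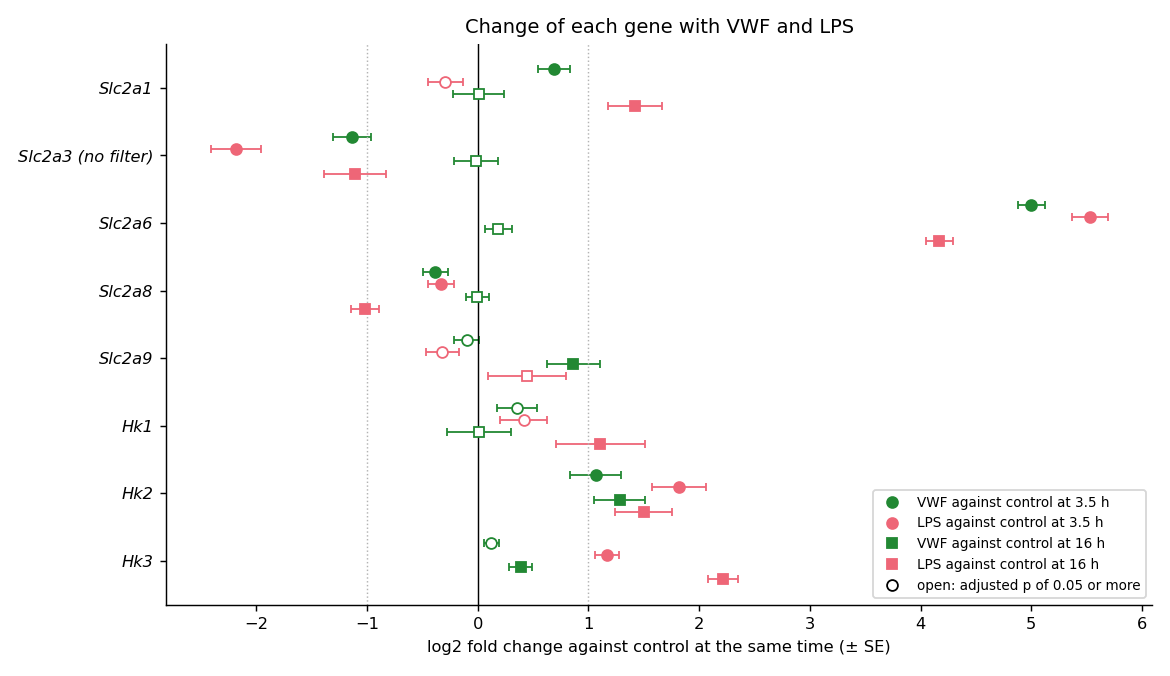
Log2 fold change of each gene against control at the same time, with its standard error (horizontal axis). Circles are 3.5 h, squares 16 h, green VWF and red LPS, open symbols did not pass the test, dotted lines mark a 2-fold change, and Slc2a3 comes from the fit without a filter. Slc2a6 has the highest values (5.00, 5.53 and 4.17) in all comparisons but VWF at 16 h (0.18).

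The sequence before the start of these genes was read from the RefSeq promoter table of GRCm38.p6, which held a window for 7 of the 8 genes (Slc2a3 had none) and a pair of windows for Hk1. The 250 bases before each start were searched on both strands for ACGTG, a form of the core of the element bound by HIF-1. HIF-1 is a transcription factor that is active at low oxygen and in activated macrophages. The E-box CACGTG, which contains ACGTG, and the NF-kappaB consensus were searched too. The form GCGTG of the HIF-1 core was not searched, and the Slc2a6 window printed below holds it. ACGTG was found at Slc2a1 (1 match), Hk2 (2) and Hk3 (1), and not at Slc2a6, Slc2a8, Slc2a9 or Hk1. Of all 32851 windows, 16.57% held ACGTG. None of the member windows held the E-box (6.02% of all windows) or the NF-kappaB consensus (3.9%). Shown are the windows of the transporter that changed most and of the transporter and the hexokinase with a match nearest to the start, 5′ to 3′ on the strand of the gene, with the letters of each match in capitals.

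Slc2a6 (chr2:27027999-27028248, minus strand): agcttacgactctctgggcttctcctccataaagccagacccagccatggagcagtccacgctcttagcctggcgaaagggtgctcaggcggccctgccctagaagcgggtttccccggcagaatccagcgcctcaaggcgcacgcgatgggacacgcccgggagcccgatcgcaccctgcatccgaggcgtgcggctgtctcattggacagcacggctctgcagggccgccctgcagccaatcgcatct
Slc2a1 (chr4:119108495-119108713, plus strand): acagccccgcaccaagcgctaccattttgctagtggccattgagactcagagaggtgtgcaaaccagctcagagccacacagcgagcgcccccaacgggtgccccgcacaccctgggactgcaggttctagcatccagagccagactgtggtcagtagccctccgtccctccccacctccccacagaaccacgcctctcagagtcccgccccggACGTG
Hk2 (chr6:82774455-82774704, minus strand): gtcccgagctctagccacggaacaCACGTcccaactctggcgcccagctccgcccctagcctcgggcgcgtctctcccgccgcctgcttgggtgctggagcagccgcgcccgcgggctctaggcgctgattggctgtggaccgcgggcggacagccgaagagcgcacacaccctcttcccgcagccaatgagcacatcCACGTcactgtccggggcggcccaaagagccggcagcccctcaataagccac

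The Slc2a6 and Hk2 windows are printed up to the base before the start, and that of Slc2a1 only up to the end of its match. Starts are those of the promoter table. The Slc2a1 match begins 36 bases before the start and those of Hk2 begin 52 and 226 bases before it. For Slc2a1 that start lies inside the gene as annotated by GENCODE, whose first base (chr4:119108711) falls within the match. The Slc2a9 window (chr5:38483386-38483635) and the Hk1 window at chr10:62340422-62340671 lie wholly inside their genes as annotated there. The lack of a match in them thus concerns bases within the gene. The Hk3 match begins 156 bases before the start. These matches are letters in a window and say nothing of whether a factor was bound.

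Among the transporters, Slc2a6 changed most. It encodes GLUT6, a transporter found on lysosomal membranes, and lies on chromosome 2 (GRCm38, chr2:27021363-27027998, minus strand). In control cultures at 3.5 h it measured 2.74, 2.53, 2.81, 3.71 and 2.94 RPKM. In VWF-treated cultures of that time it measured 84.3, 99.6, 108, 112 and 96.5 RPKM, and in LPS-treated cultures 102, 144, 163 and 154. The lowest treated culture was thus far above the highest control, and the VWF and LPS cultures overlapped each other. The log2 fold change was 5.00 (SE 0.12, adjusted p = 6.16e-10 by edgeR with Benjamini-Hochberg adjustment), or 32.0-fold, with VWF and 5.53 (SE 0.16, adjusted p = 4.28e-10), or 46.2-fold, with LPS.

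At 16 h the agents parted for Slc2a6. Control cultures measured 6.51, 7.62, 7.88, 8.94 and 8.65 RPKM and VWF-treated cultures 7.81, 9.08, 11.5, 9.23 and 11.1. These 2 groups overlapped and the test was not passed (log2 fold change 0.18, SE 0.12, adjusted p = 0.321 by edgeR). LPS-treated cultures still measured 136, 154, 159 and 138 RPKM, all above every control, with a log2 fold change of 4.17 (SE 0.12, adjusted p = 1.78e-08). Within the VWF groups Slc2a6 fell by 3.31 on the log2 scale from 3.5 h to 16 h (SE 0.12, adjusted p = 2.63e-09), in the control groups it rose by 1.48 (SE 0.13, adjusted p = 2.42e-05), and between the LPS groups the difference of 0.13 did not pass (SE 0.13, adjusted p = 0.41). The change of the effect with time, tested as an interaction, was -4.78 for VWF (SE 0.17, adjusted p = 2.94e-13) and -1.34 for LPS (SE 0.19, adjusted p = 1.91e-05). The sum of the 4 dendritic cell markers split the groups in the same way, at 2.81 to 6.58 RPKM in the 3 groups where Slc2a6 was high and 0.0959 to 0.603 in the other 3. Of these markers only Xcr1 (up to 6.35 RPKM) reached 1 RPKM in any culture, so the list is not shown to move as a whole. The part of these markers in the result was not tested.

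Slc2a1 encodes GLUT1, the widely expressed glucose transporter of the plasma membrane (chr4:119108711-119137983, plus strand). The antisense gene Gm12868 overlaps 2.99% of its exon bases, and whether the counting used strand is not given in the sources used here. At 3.5 h control cultures measured 20.6, 22.2, 23.7, 33.9 and 23.7 RPKM, VWF-treated cultures 39.3, 33.5, 42.0, 51.3 and 46.1, and LPS-treated cultures 17.6, 19.0, 19.3 and 27.4. Control replicate 4, at 33.9 RPKM, was higher than the other controls and just above the lowest VWF culture, and the LPS cultures overlapped the controls. Slc2a1 rose with VWF by 0.69 (SE 0.14, adjusted p = 0.0021 by edgeR) and by 0.82 without control replicate 4. With LPS the log2 fold change of -0.29 did not pass (SE 0.16, adjusted p = 0.121), although it passed at -0.84 under scaling by library size (adjusted p = 0.000784).

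At 16 h the order of the agents was the opposite for Slc2a1. Control cultures measured 28.2, 24.1, 17.9, 22.9 and 11.2 RPKM, and VWF-treated cultures 27.6, 22.0, 23.0, 24.4 and 16.2. LPS-treated cultures measured 66.0, 66.3, 50.4 and 45.8 RPKM, above every culture of the other 2 groups. Slc2a1 rose with LPS by 1.42 (SE 0.25, adjusted p = 0.000849 by edgeR), or 2.68-fold, and its log2 fold change with VWF was 0.0074 (SE 0.23, adjusted p = 0.988). Set against LPS directly, VWF-treated cultures were higher by 1.01 at 3.5 h (SE 0.15, adjusted p = 0.000301) and lower by a log2 fold change of -1.36 at 16 h (SE 0.18, adjusted p = 0.000101), and these 2 differences themselves differed by -2.40 (SE 0.24, adjusted p = 4.07e-07). The 2-fold threshold at 3.5 h was missed without 5 of the 9 cultures, left out in turn, with log2 fold changes from 0.93 to 1.16, while the test was passed each time.

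Slc2a3 encodes GLUT3, a transporter with a high affinity for glucose that is best known from neurons (chr6:122727809-122801640, minus strand). It was the least expressed of the 5 transporters in every group. At 3.5 h it measured 0.695 to 1.11 RPKM in control, 0.302 to 0.513 in VWF-treated and 0.129 to 0.265 in LPS-treated cultures, with no overlap between the 3 groups. Between 34 and 614 reads per culture stood behind these values. In the fit without a filter, in which 19% of 26147 genes passed with VWF and 32.7% of 25626 with LPS, Slc2a3 fell by 1.13 with VWF (SE 0.17, adjusted p = 4.11e-05 by edgeR) and by 2.19 with LPS (SE 0.23, adjusted p = 1.81e-08). At 16 h it measured 0.414 to 0.853 RPKM in control and 0.594 to 0.927 in VWF-treated cultures (log2 fold change -0.0122, SE 0.20, adjusted p = 0.985, where 10.5% of genes passed). LPS-treated cultures of that time measured 0.203 to 0.409 RPKM, below all controls by a small margin, and Slc2a3 fell by 1.11 (SE 0.28, adjusted p = 0.0107, where 24.1% passed). The lowest control was replicate 5 and the lowest LPS culture replicate 4, the cultures that stood apart, and without both the log2 fold change was -1.13 (adjusted p = 1.48e-06). Set against LPS directly, Slc2a3 was higher with VWF by 1.02 at 3.5 h (SE 0.26, adjusted p = 0.00513) and by 1.16 at 16 h (SE 0.23, adjusted p = 0.00123).

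Slc2a8 encodes GLUT8, a transporter held mostly on membranes inside the cell (chr2:32972990-32982083, minus strand). It measured 6.22 to 8.63 RPKM in controls at 3.5 h, 5.37 to 6.93 with VWF and 5.62 to 6.32 with LPS, and the groups overlapped. It fell by 0.38 with VWF (SE 0.12, adjusted p = 0.0187 by edgeR) and by 0.33 with LPS (SE 0.12, adjusted p = 0.0302). Neither change passed without a filter (adjusted p = 0.0781 and 0.0879), nor did that of VWF without 2 of the 10 cultures or that of LPS without 4 of the 9, each left out alone. At 16 h Slc2a8 measured 6.62 to 9.14 RPKM in control and 7.40 to 9.09 in VWF-treated cultures (log2 fold change -0.004, SE 0.10, adjusted p = 0.985). LPS-treated cultures measured 3.25, 4.41, 3.70 and 3.99 RPKM, all below every control, and Slc2a8 fell by 1.02 (SE 0.13, adjusted p = 0.000102). The change passed the test but stayed under 2-fold without a filter (-0.93), with the filter of filterByExpr (-0.93) and without LPS replicate 1, LPS replicate 3 or control replicate 3, each left out alone (-0.95 at the smallest). The effect of LPS was lower at 16 h than at 3.5 h by a log2 value of -0.68 (SE 0.16, adjusted p = 0.00226).

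Slc2a9 encodes GLUT9, which is known above all as a carrier of urate (chr5:38349273-38503143, minus strand). At 3.5 h it measured 2.80 to 3.50 RPKM in control, 2.71 to 3.68 with VWF and 1.99 to 3.34 with LPS, and neither treatment passed the test (adjusted p = 0.538 and 0.0784 by edgeR). The fall with LPS (-0.32) passed under library size scaling (-0.86, adjusted p = 0.000449). It also passed with a covariate for transcript length, added after seeing the data (-0.33, adjusted p = 0.021). At 16 h control cultures measured 2.01, 2.497, 2.62, 2.55 and 1.12 RPKM and VWF-treated cultures 4.23, 4.56, 5.25, 2.72 and 4.51. The 2 groups did not overlap, and Slc2a9 rose with VWF by 0.86 (SE 0.24, adjusted p = 0.0198), but not past the threshold under library size scaling (adjusted p = 0.0639) or with the replicate number as a block (adjusted p = 0.0527). Without control replicate 5, which stood apart, the rise was 0.71 (adjusted p = 0.00556). The 8 markers of neutrophils and their precursors summed to 4.98 to 8.34 RPKM in VWF-treated cultures of 16 h, above the 1.54 to 4.03 of control and the 2.13 to 4.20 of LPS-treated cultures. The 6 macrophage markers were also highest there, at 11760 to 17240 RPKM against 2754 to 10740 in control and 3213 to 6571 with LPS. Lyz2 was the largest of them, at up to 14700 RPKM. The part of either list in the changes of Slc2a9, Hk2 and Hk3 with VWF at 16 h was not tested. LPS-treated cultures ranged from 1.20 to 4.37 RPKM around the controls, and the log2 fold change of 0.45 did not pass (SE 0.35, adjusted p = 0.314). Without the 2 cultures that stood apart it was 0.56 and passed (adjusted p = 0.00273). The VWF effect was higher at 16 h than at 3.5 h by 1.00 (SE 0.26, adjusted p = 0.00502), and by 0.83 (still past the test but under 2-fold) without control replicate 5 of 16 h.

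The other SLC2 genes were close to absent. Slc2a2, Slc2a4, Slc2a5, Slc2a7, Slc2a12 and Slc2a13 stayed at or below 16 reads in every culture, and Slc2a10 reached 49 reads, or 0.275 RPKM. Hkdc1, of the hexokinase family, reached 4 reads. None of these 8 genes reached the level needed for the test.

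The sum of the 5 transporters was 39.2 ± 5.32 RPKM in control, 152 ± 15.0 with VWF and 170 ± 29.6 with LPS at 3.5 h (mean ± SD, n = 5, 5 and 4). At 16 h it was 39.2 ± 6.48 RPKM in control, 45.6 ± 2.85 with VWF and 211 ± 17.0 with LPS. The makeup of this sum, computed in TPM and given as a description, turned over between groups. In controls at 3.5 h Slc2a1 held 62.9% ± 4.31 of it and Slc2a6 7.52% ± 0.428. Slc2a6 held 65.8% ± 2.62 with VWF and 82.3% ± 2.43 with LPS at that time, and 69.6% ± 3.97 with LPS at 16 h, while in control and VWF-treated cultures at 16 h its share was 20.9% ± 5.87 and 21.6% ± 4.09 and Slc2a1 was again the larger part (52.0% ± 9.40 and 49.4% ± 6.77).

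**Figure D3:**
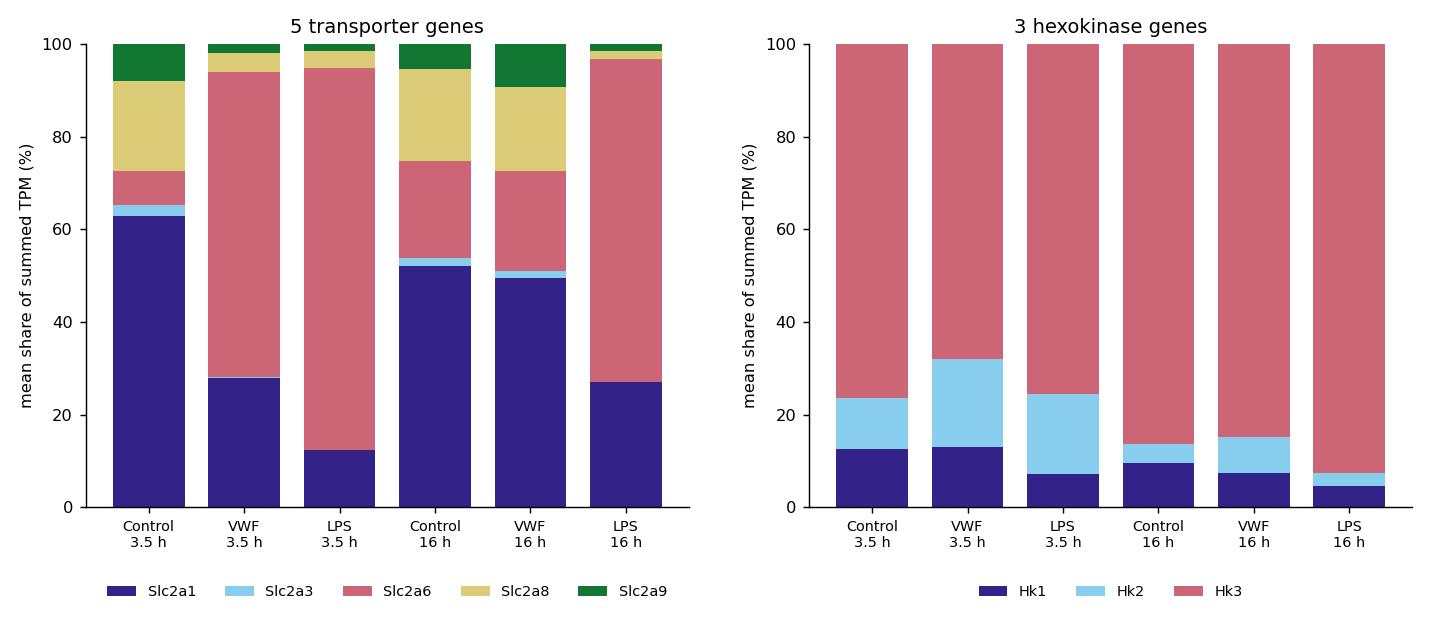
Mean share of each gene in the summed TPM of the 5 transporter genes (left) and of the 3 hexokinase genes (right), in percent, by group. Slc2a6 makes up 65.8% to 82.3% of the transporter sum in the 3 groups where it is high, and Hk3 makes up 67.9% to 92.6% of the hexokinase sum in all 6 groups.

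Among the hexokinases, Hk3 was the most abundant in every culture. Hk3 is the isoform characteristic of myeloid cells (chr13:55005985-55021385, minus strand), and Unc5a on the other strand overlaps 0.92% of its exon bases. Control cultures at 3.5 h measured 60.0, 58.1, 64.7, 59.5 and 66.5 RPKM and VWF-treated cultures 70.8, 72.1, 68.7, 67.2 and 77.4. All VWF cultures were thus above all controls, by a margin of under 1 RPKM, and the log2 fold change of 0.12 did not pass the test (SE 0.07, adjusted p = 0.187 by edgeR). LPS-treated cultures measured 119, 167, 137 and 148 RPKM, above both other groups, and Hk3 rose by 1.17 (SE 0.11, adjusted p = 2.17e-06), or 2.25-fold.

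At 16 h Hk3 was again ordered control, VWF and LPS with no overlap between the groups. Control cultures measured 63.8, 61.6, 70.5, 70.04 and 52.7 RPKM, VWF-treated cultures 86.4, 91.0, 105, 76.4 and 92.8, and LPS-treated cultures 309, 322, 356 and 229. The rise with VWF was 0.39 (SE 0.10, adjusted p = 0.0153 by edgeR) and 0.33 without control replicate 5, which stood apart. It did not pass under library size scaling (0.32, adjusted p = 0.132). The rise with LPS was 2.22 (SE 0.14, adjusted p = 8.51e-07), or 4.65-fold, and exceeded that at 3.5 h by 1.06 (interaction, SE 0.16, adjusted p = 3.45e-05). LPS replicate 4, one of the cultures that stood apart, was the lowest of its group and still above every culture outside it.

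Hk2 encodes the inducible hexokinase that binds to mitochondria (chr6:82725025-82774454, minus strand), and was the only one of the 8 genes that was called against control with both agents at both times. At 3.5 h control cultures measured 6.20, 7.32, 7.25, 15.8 and 8.80 RPKM, VWF-treated cultures 18.2, 16.5, 18.9, 21.6 and 25.1, and LPS-treated cultures 25.2, 39.4, 33.5 and 33.2. Control replicate 4 stood well above the other controls and just below the lowest VWF culture, and the LPS cultures were all above the VWF cultures. The log2 fold change was 1.06 with VWF (SE 0.23, adjusted p = 0.00309 by edgeR) and 1.82 with LPS (SE 0.25, adjusted p = 6.23e-05). That of VWF was near the 2-fold threshold and ranged from 0.96 to 1.35 when each culture was left out in turn, highest without control replicate 4. It was under 2-fold, and still passed, without VWF replicate 5, control replicate 1 or control replicate 3 and under library size scaling (0.84, adjusted p = 0.014).

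At 16 h Hk2 was lower in all 3 groups than at 3.5 h. Control cultures measured 3.78, 4.11, 3.15, 3.26 and 1.69 RPKM, VWF-treated cultures 9.93, 9.02, 10.1, 7.01 and 6.09, and LPS-treated cultures 10.3, 9.72, 11.2 and 5.84. Every treated culture was above every control, and the VWF and LPS groups overlapped. Hk2 rose by 1.28 with VWF (SE 0.23, adjusted p = 0.00193 by edgeR, and by 1.13 without control replicate 5) and by 1.501 with LPS (SE 0.26, adjusted p = 0.000822). From 3.5 h to 16 h it fell by 1.46 in control (SE 0.29, adjusted p = 0.00266), by 1.20 in VWF-treated (SE 0.16, adjusted p = 4.87e-05) and by 1.76 in LPS-treated cultures (SE 0.21, adjusted p = 9.78e-05). Neither interaction passed the test (0.26 for VWF, SE 0.34, adjusted p = 0.633, and -0.29 for LPS, SE 0.39, adjusted p = 0.568).

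Hk1 encodes the hexokinase that most cells express constantly (chr10:62268855-62379908, minus strand), and Hk1os on the other strand overlaps 1.84% of its exon bases. At 3.5 h it measured 7.45 to 13.2 RPKM in control, 11.3 to 17.99 in VWF-treated and 9.40 to 19.7 in LPS-treated cultures, and neither log2 fold change passed (0.35, SE 0.18, adjusted p = 0.146 and 0.42, SE 0.21, adjusted p = 0.107 by edgeR). Both passed with a covariate for transcript length, added after seeing the data (0.35, adjusted p = 0.00206 with VWF and 0.40, adjusted p = 0.0187 with LPS). Under library size scaling the value with LPS was -0.13 and did not pass (adjusted p = 0.621). At 16 h control cultures measured 7.92, 9.05, 8.17, 8.32 and 2.66 RPKM, VWF-treated cultures 8.33, 7.99, 9.72, 5.202 and 8.14, and LPS-treated cultures 20.6, 16.5, 20.3 and 6.16. In both control and LPS the culture that stood apart was the lowest, and LPS replicate 4 fell among the controls. Hk1 rose with LPS by 1.11 (SE 0.40, adjusted p = 0.0432), a call that was lost without 7 of the 9 cultures left out singly (log2 fold changes over all 9 from 0.90 to 1.37). Without both cultures that stood apart the rise was 1.17 and passed the test, and it did not pass under library size scaling (0.54, adjusted p = 0.321). The VWF comparison gave 0.0104 (SE 0.29, adjusted p = 0.986).

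Summed over the 3 hexokinases the level was 81.1 ± 7.11 RPKM in control, 105 ± 8.79 with VWF and 190 ± 29.9 with LPS at 3.5 h, and 74.2 ± 10.1, 107 ± 12.8 and 329 ± 62.2 at 16 h. In TPM, Hk3 made up between 67.9% ± 2.42 of this sum (VWF at 3.5 h) and 92.6% ± 1.77 (LPS at 16 h). The share of Hk2 was 11.02% ± 3.94 in control, 19.0% ± 2.26 with VWF and 17.3% ± 0.768 with LPS at 3.5 h, and at most 7.90% ± 1.38 in any group at 16 h.

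VWF was also set against LPS directly. At 3.5 h 4 of the 7 tested genes passed and 2 were called (Slc2a1 higher and Hk3 lower with VWF), against 50.2% and 11.4% of 7500 genes. Slc2a6 (-0.50, adjusted p = 0.00696 by edgeR) and Hk2 (-0.73, adjusted p = 0.00228) were lower with VWF by less than 2-fold, and Slc2a6 did not pass under library size scaling (adjusted p = 0.123). At 16 h 5 passed and were called (against 60.5% and 25.5% of 7574): Slc2a1, Slc2a6, Hk1 and Hk3 were lower with VWF and Slc2a8 higher. For Hk2 the difference of -0.17 did not pass (SE 0.21, adjusted p = 0.516). Same-numbered VWF and LPS cultures deviated together at 16 h, and with the replicate number as a block 4 genes were called: Hk1 still passed the test but missed the 2-fold threshold, and Slc2a9 passed at 0.53 (adjusted p = 0.0139).

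Over time, 2 genes were called in control (Slc2a6 higher and Hk2 lower at 16 h, the same 2 that passed, against 9.08% called and 41.1% passed of all genes). In VWF-treated cultures all 7 passed and 2 were called (Slc2a6 and Hk2, both lower at 16 h, against 67.9% and 21.4%). In LPS-treated cultures 4 passed and 3 were called (Slc2a1 and Hk3 higher and Hk2 lower, against 60.9% and 28.1%). Of the interactions, the VWF effect changed with time in 4 genes and past the fold threshold in 2 (Slc2a6 lower and Slc2a9 higher, against 32.6% and 13.5% of genes). The LPS effect did so in 4 and 3 (Slc2a1 and Hk3 higher and Slc2a6 lower, against 48.8% and 26.3%), and the difference between VWF and LPS in 5 and 4 (Slc2a1, Slc2a6 and Hk1 lower and Slc2a8 higher, against 52.7% and 25%). The value of Hk1 there (-1.03, adjusted p = 0.0394) missed the test without a filter (adjusted p = 0.125) and without 12 of the 18 cultures left out singly.

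A ratio of 2 genes within a culture does not depend on how cultures are scaled against each other. Log2 ratios of TPM for 4 pairs of genes were compared in 9 pairs of groups by exact two-sided permutation tests, 36 in all, and 25 had a Benjamini-Hochberg adjusted p under 0.05. With 5 against 5 cultures the smallest p such a test can give is 0.0079. The log2 ratio of Slc2a6 to Slc2a1 was -3.06 ± 0.11 in control, 1.25 ± 0.22 with VWF and 2.75 ± 0.29 with LPS at 3.5 h (mean ± SD). At 16 h it was -1.34 ± 0.65 in control, -1.21 ± 0.48 with VWF and 1.38 ± 0.30 with LPS. Slc2a6 was thus on average the lower of the pair in control at both times and the higher with LPS at both times, and with VWF it was the higher at 3.5 h and the lower at 16 h. Of the 9 comparisons of this ratio, 8 had an adjusted p under 0.05, and the exception was VWF against control at 16 h (difference 0.13, exact permutation p = 0.722, adjusted p = 0.765).

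The ratio of Hk2 to Hk1 was -0.23 ± 0.33 in control, 0.54 ± 0.28 with VWF and 1.26 ± 0.18 with LPS at 3.5 h. At 16 h it was -1.12 ± 0.29, 0.10 ± 0.32 and -0.67 ± 0.41 in the same order. With VWF at 16 h Hk2 gained on Hk1 by 1.21 against control with no overlap between the groups (exact permutation p = 0.0079, the smallest possible, adjusted p = 0.0159). The LPS cultures overlapped the controls of that time, and the difference of 0.44 did not pass (exact permutation p = 0.0873, adjusted p = 0.108). That overlap came from control replicate 5, which stood apart and had the highest ratio of the controls. Every other control lay below every LPS culture, and a p-value without replicate 5 is not given here. The ratio of Slc2a3 to Slc2a1 was lower than in control, by a log2 difference of -1.89 with VWF at 3.5 h, -1.975 with LPS at 3.5 h and -2.67 with LPS at 16 h (each exact permutation p = 0.0079, adjusted p = 0.0159). The ratio of Hk3 to Hk1 rose with LPS at 3.5 h by 0.76 (exact permutation p = 0.0159, adjusted p = 0.0286), and at 16 h its difference of 1.13 did not pass (exact permutation p = 0.0397, adjusted p = 0.051). At 16 h the cultures that stood apart, control replicate 5 and LPS replicate 4, had the highest Hk3 to Hk1 ratio of their groups. Every other control lay below every LPS culture, and a p-value without the cultures that stood apart is not given here.

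**Figure D4:**
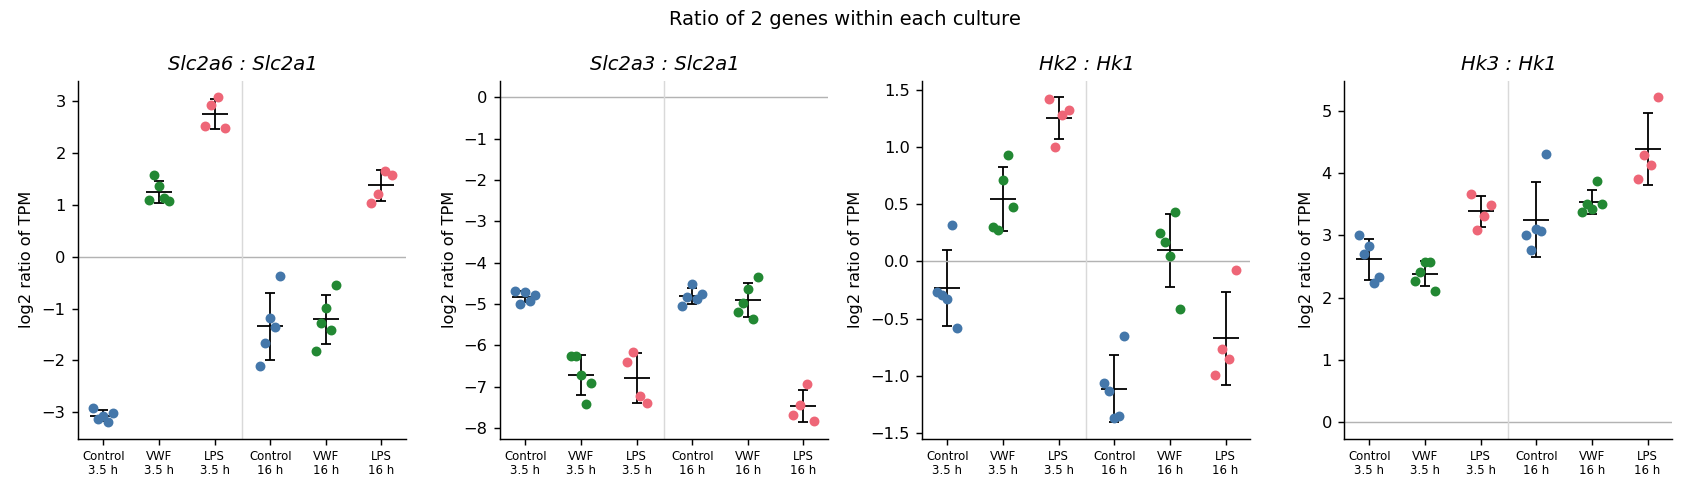
Log2 ratio of TPM of 4 pairs of genes (vertical axis) in each culture by group. Points are cultures, horizontal lines are group means and bars are SD. The Slc2a6 to Slc2a1 ratio averages -3.06 in control and 1.25 and 2.75 with VWF and LPS at 3.5 h, and at 16 h it averages above 0 with LPS (1.38) and below 0 in control and with VWF.

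The steps after hexokinase were described from 3 lists. Of 15 genes of lower glycolysis and lactate export, 13 were tested with VWF at 3.5 h, of which 2 rose and 3 fell, where 43.6% of all genes passed in either direction (median -0.13 on the log2 scale, against -0.01 over every tested gene). Pfkl, the liver-type phosphofructokinase, rose by 1.13 (SE 0.13, adjusted p = 2.67e-05), from 7.63 ± 1.19 to 17.8 ± 2.92 RPKM. With LPS at 16 h, 6 of 15 rose and 3 fell, where 53.7% of all genes passed (median 0.52, against -0.03), among them Slc16a3, the lactate exporter MCT4, which rose by 1.74 (SE 0.22, adjusted p = 0.000126) from 31.9 ± 6.64 to 110 ± 25.6 RPKM, and Aldoc, an aldolase, which fell by 2.48 (SE 0.16, adjusted p = 1.08e-06). With VWF at 16 h 2 of 15 rose and 1 fell (27.7% of all genes passed), and with LPS at 3.5 h 2 of 13 rose and 2 fell (65.7%). From 3.5 h to 16 h, 13 of 15 rose in control, 14 of 15 in VWF-treated and 11 of 12 in LPS-treated cultures, the opposite direction to Hk2, where 41.1%, 67.9% and 60.9% of all genes passed in either direction.

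Of 11 genes for other fates of glucose 6-phosphate, Slc37a2, a glucose 6-phosphate transporter of the endoplasmic reticulum, fell in all 4 comparisons with control, most with VWF at 3.5 h (by 2.26, SE 0.13, adjusted p = 7.34e-08), from 113 ± 19.9 to 25.0 ± 2.07 RPKM. With LPS at 16 h 4 of 10 tested genes rose and 3 fell, where 53.7% of all genes passed, and Gys1, the glycogen synthase of most tissues, rose by 1.72 (SE 0.13, adjusted p = 3.59e-06). Among 8 regulators, 4 or 5 passed in each of the 4 comparisons with control, against shares of all genes from 27.7% to 65.7%. Hif1a, Arrdc4 and Pfkfb3 rose in all 4 and were named as such after their values were seen. Pfkfb3, which makes an activator of phosphofructokinase, measured 3.59 ± 1.07 RPKM in control and 109 ± 22.1 with LPS at 16 h and rose by 4.89 (SE 0.29, adjusted p = 7.9e-07). Myc, a transcription factor, fell in the same 4 comparisons, by 3.27 with LPS at 3.5 h (SE 0.23, adjusted p = 3.12e-07).

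The genes whose pattern was most like that of each of the 7 genes over the 28 cultures were found by Pearson's r of log2 CPM among 8867 genes, as a description, since the cultures share 6 groups. Those of Slc2a6 were Mfsd7a (0.991), Batf (0.986) and Il1b (0.98). Those of Slc2a1 were Cars (0.899), Ero1l (0.892) and Grb2 (0.889), those of Slc2a8 were Scamp5 (0.915), Wdr34 (0.914) and Lancl1 (0.913), and those of Slc2a9 were Ormdl2 (0.907), Nsdhl (0.899) and Arpc1b (0.888). Among the hexokinases, Hk1 was nearest to Mark4 (0.97), Lrrc8d (0.968) and Zdhhc5 (0.964), Hk2 to Larp1 (0.958), Sema4c (0.952) and Spsb1 (0.943), and Hk3 to Wars (0.971), A630012P03Rik (0.968) and Eng (0.967). No 2 of the 7 genes were among each other's nearest. Between the 7 genes themselves r ran from -0.77 (Slc2a8 with Hk3) to 0.708 (Hk1 with Hk2).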

How the data were processed

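Paired reads of 150 bases from 28 cultures of bone marrow-derived macrophages were mapped by the authors with STAR to GRCm38 (mm10), per the submitters' processing notes, and deposited as raw counts per Ensembl gene. For the STAR version, the annotation, the strand setting and multi-mapping reads, nothing is stated (not given in the sources used here). The deposited counts summed to between 41131209 and 77699206 per culture (median 52986574). RPKM, CPM and TPM were computed here from these counts with exon lengths of GENCODE release M21.

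Groups came from the labels. Each comparison was fitted with edgeR 4.0.16 (R 4.3.3; robust quasi-likelihood test, TMM factors, the compared groups alone) on genes that reached 10 TPM in at least 1 culture of the comparison, with Benjamini-Hochberg adjustment over all tested genes, and a gene was called at an adjusted p under 0.05 and a change of at least 2-fold. Interactions were fitted on 4 groups. Ratios were tested in Python 3.11.15 with scipy 1.17.1. The test script was checked on simulated data. The alternatives were DESeq2 1.42.0, other scaling, other filters, 1 joint fit, the replicate number as a block, and leaving out cultures. Leaving out both cultures that stood apart, leaving out cultures without a filter for Slc2a3, and a covariate for transcript length, were added after seeing the data.

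Members and lists were chosen with earlier results of these data known. The text names the 8 genes, at most the 3 largest changes of each list in a comparison (with the exception given beside the regulators), and the 3 nearest genes by pattern. No pair of cultures of a group agreed within sampling noise (lowest chi-square per degree of freedom 17.08 over 52 pairs). At 16 h the same-numbered VWF and LPS cultures deviated together in each pair (r from 0.194 to 0.868 over 4 pairs). Of the other groups, only LPS at 3.5 h with VWF at 16 h had a positive r in every pair (0.07 to 0.294 over 4 pairs). The pairing was taken from the data after every pair of groups was looked at, since the sources used here do not say what the number stands for. Whether it exceeds what arises without any pairing was not tested.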

Additional observations from a re-analysis of the deposited data

Results flagged for a closer look

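In 4 of 48 groups of values (8 genes in 6 groups) 1 culture lay apart from the rest by Dixon's test at the 95% level, which chance alone does in about 1 of 20 groups. Control replicate 4 at 3.5 h was the highest of its group for Slc2a1 (33.9 RPKM) and Hk2 (15.8 RPKM). Control replicate 5 at 16 h was the lowest of its group for Slc2a3 (0.414 RPKM) and Hk1 (2.66 RPKM).

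The effect of treatment differed between 3.5 h and 16 h by an interaction test (edgeR, adjusted over all genes) in 13 cases. The VWF effect changed by -4.78 for Slc2a6, 0.41 for Slc2a8, 1.00 for Slc2a9 and 0.30 for Hk3. The values of Slc2a8 and Hk3 were close to the threshold (adjusted p = 0.048 and 0.0489) and missed it without the cultures that stood apart (adjusted p = 0.0621 and 0.0862). The LPS effect changed by 1.74 for Slc2a1, -1.34 for Slc2a6, -0.68 for Slc2a8 and 1.06 for Hk3. The difference between VWF and LPS changed by -2.40 for Slc2a1, -3.46 for Slc2a6, 1.07 for Slc2a8, -1.03 for Hk1 and -0.78 for Hk3, and that of Hk1 missed the threshold under library size scaling (adjusted p = 0.109), with filterByExpr (0.054), without a filter (0.125), in 1 joint fit (0.0633) and without 12 of the 18 cultures left out singly. It passed but was under 2-fold with the replicate block (-0.95) and with the length covariate (-0.96).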

How the results depend on the processing

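Counts of called genes within 1.5 times of those in the report are not repeated here. Without the fold threshold the count was 4 with VWF at 3.5 h, 3 with VWF at 16 h, 4 for VWF against LPS at 3.5 h, 7 for VWF over time and 4 for the change of the VWF effect. Library size scaling gave 1 with VWF at 3.5 h, 3 with LPS at 16 h, 1 for VWF against LPS at 3.5 h and 3 at 16 h. For VWF against LPS at 3.5 h, DESeq2, median-of-ratios factors, a filter over all 28 cultures and the replicate block each gave 1. For the change of the VWF effect, DESeq2, median-of-ratios factors, 1 joint fit, the replicate block and leaving out the cultures that stood apart each gave 1. Leaving out each culture in turn gave 1 to 2 with VWF at 3.5 h, 0 to 2 for VWF against LPS at 3.5 h and 1 to 2 for the change of the VWF effect.

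Log2 fold changes that turned sign had an adjusted p over 0.05 on both sides, and the cause was not tested. Under library size scaling these were Hk3 with VWF at 3.5 h (-0.0897), Slc2a1 (-0.0793) and Hk1 (-0.0718) with VWF at 16 h, Hk1 with LPS at 3.5 h (-0.13), Slc2a9 with LPS at 16 h (-0.11), Slc2a8 and Hk1 for VWF against LPS at 3.5 h (0.27 each) and Hk2 for it at 16 h (0.28). Slc2a8 with VWF at 16 h was 0.0025 with DESeq2, 0.0023 with median-of-ratios factors, 0.0565 with filterByExpr, 0.0654 without a filter and 0.0002 with the replicate block. Without the cultures that stood apart Slc2a1 (-0.1454) and Hk1 (-0.195) with VWF at 16 h and Slc2a9 for the change of the VWF-LPS difference (-0.0607) turned. With each culture left out, the ranges were -0.1454 to 0.1425 for Slc2a1, -0.0465 to 0.0691 for Slc2a8 and -0.195 to 0.1312 for Hk1 with VWF at 16 h, -0.1806 to 0.1924 for Hk1 in VWF against LPS at 3.5 h, -0.0573 to 0.3636 for Hk2 in the change of the VWF effect and -0.0607 to 0.4033 for Slc2a9 in the change of the VWF-LPS difference. Without a filter, Slc2a3 with VWF at 16 h ranged from -0.1466 to 0.0698 and turned without VWF replicate 2 (0.0184) or 4 (0.0698) or control replicate 1 (0.0524) or 2 (0.0366).

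Outside VWF against LPS at 16 h, no groups compared directly had a positive r in every pair of same-numbered cultures. In the other comparisons the replicate block lost Slc2a9 with VWF at 16 h (adjusted p = 0.0527), Hk1 with LPS at 16 h (0.77, adjusted p = 0.0801), and Slc2a8 and Hk3 in the change of the VWF effect (adjusted p = 0.0699 and 0.0833), and gained Slc2a1 with LPS at 3.5 h (-0.31, adjusted p = 0.0226). In the change of the VWF-LPS difference 3 genes were called with the block, since Hk1 was under 2-fold (-0.95, adjusted p = 0.034). With the length covariate 10 log2 fold changes passed that had not passed in the report, and 74 kept their result. Groups of 4 or 5 cultures limit the precision, and Slc2a3 rests on 34 to 614 reads per culture.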
